A study of Mus musculus with 3 samples.

Results

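Ligands on tumour cells that tell T cells, natural killer (NK) cells and phagocytes to stop or to act were described across 3 culture conditions of 4T1, a mouse mammary carcinoma cell line. The set holds 10 genes, Cd274, Pdcd1lg2, Cd80, Cd86, Cd276, Cd47, Cd200, Pvr, Lgals9 and Icosl, out of 18193 genes with a name on the array. Every probe set whose platform annotation gives 1 of these symbols alone was taken, which gave 25 probe sets. The first array held 4T1 cells grown for 1 week in contact with MSCs and then isolated from that co-culture. The second held 4T1 cells grown for 1 week in MSC-conditioned medium (the labels' MSC-CM), and the third 4T1 cells kept in regular medium, with no culture time stated. MSC most often stands for mesenchymal stromal cell. All conditions rest on RPMI medium with 10% FBS, per the labels. The labels do not say where the MSCs came from or how the 4T1 cells were separated, and MSCs that stayed behind would be measured with them. Each condition has 1 array, so no difference below has a replicate error or a test.

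Checkpoint ligands work by binding a receptor on an immune cell. PD-L1 and PD-L2, the products of Cd274 and Pdcd1lg2, bind PD-1 and damp T cells, while CD80 and CD86 bind CD28 to stimulate and CTLA-4 to restrain them. CD47 holds back phagocytes through SIRPα, CD200 restrains myeloid cells, galectin-9 (Lgals9) is a ligand of TIM-3, and the poliovirus receptor homologue PVR (CD155) is read by NK and T cells through the activating CD226 and the inhibitory TIGIT. Interferon is a known inducer of PD-L1 and of galectin-9 in many cell types.

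The values are MAS5 signals, which combine the probes of a probe set into 1 brightness. Signals at or below a floor of 42.4, the pooled 40th percentile, were read as 42.4 and have no order among them. A gene is called bright in a comparison when the higher of its 2 signals reached 149.3, the pooled 60th percentile. It met the size rule when it was bright and its signals differed at least 2-fold. Where a gene has several probe sets, the one with the highest mean signal stands for it. Of the 45037 probe sets, 40.7%, 41.4% and 38% lay at or below the floor in co-culture, conditioned medium and regular medium. The epithelial markers expected of 4T1 cells were present, all 10 of them bright on every array, Krt18 for example at 21097 in co-culture, 19115 in conditioned medium and 18723 in regular medium. None of the 10 met the size rule. In log2 difference between co-culture and regular medium, Cd276 and Cd47 stood at 0.78 and 0.74, against a median of 0.42 for these markers, with Cldn4 at 0.81, Cdh1 at 0.68 and Krt7 at 0.61.

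Contact co-culture was set against regular medium to see which of these ligands differed after contact with MSCs. Lgals9 and Cd274 met the size rule, both higher in co-culture, and no member was lower by it. Cd276 and Cd47 had signals 1.72-fold and 1.67-fold higher, Icosl 1.34-fold and Pvr 1.04-fold. Pdcd1lg2, Cd80, Cd86 and Cd200 were not bright on any array. Of the 6 bright members 2 were at least 2-fold higher and 0 at least 2-fold lower, against 5.81% and 2.76% of all 9393 bright genes in this comparison. At 1.5-fold or more, 4 of 6 members were higher, against 16.9% of all bright genes. The median log2 difference of the 6 was 0.76, with a range of 0.05 to 2.19, and the median over all bright genes was 0.07. Of the 6, Cd274 and Icosl were bright only through their co-culture signal, so they could enter the count only by being high there, and Cd274 is 1 of the 2 that met the rule. The counts and the median are therefore a description of these 6 and do not speak for all 10.

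**Figure D1:**
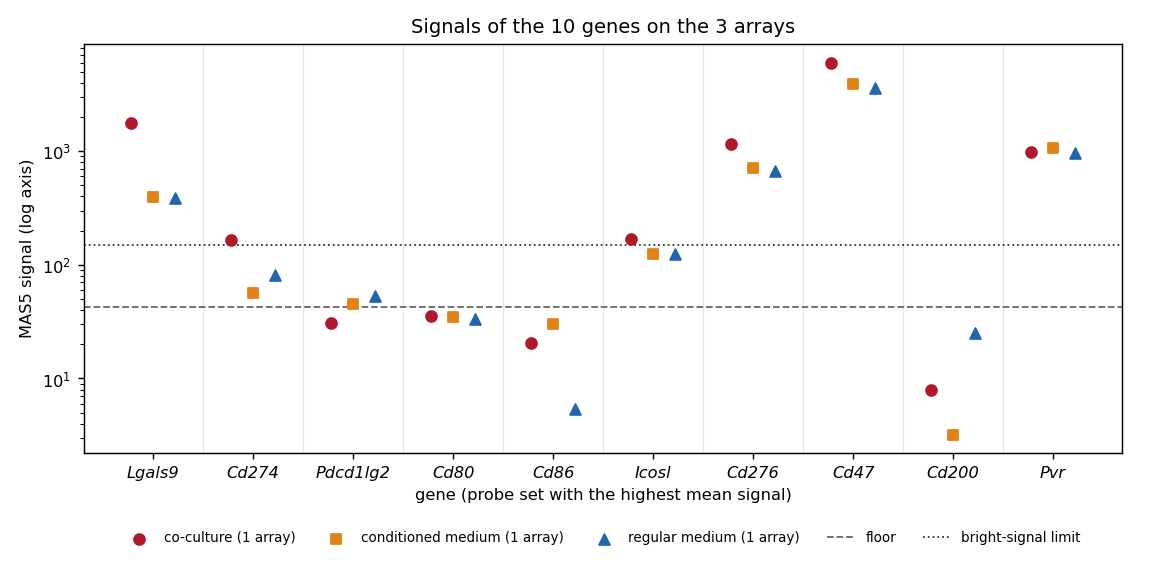
MAS5 signals (log axis) of the 10 genes on the co-culture, conditioned-medium and regular-medium arrays, 1 point per array, with the floor of 42.4 dashed and the bright limit of 149.3 dotted. Signals may be read across arrays within a gene but not between genes. Lgals9, Cd274, Cd276 and Cd47 have their highest point in co-culture, and Cd80, Cd86 and Cd200 lie under the floor throughout.

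Lgals9 encodes galectin-9, a secreted lectin that binds TIM-3 and other glycoproteins on lymphocytes. Its signal was 1770.7 in co-culture, 393.5 in conditioned medium and 389.3 in regular medium. The co-culture array thus stood alone, and the other 2 differed by 1.01-fold. The log2 difference between co-culture and regular medium was 2.19, or 4.55-fold, which placed Lgals9 at percentile 99.2 of the bright genes. With no replicate, the nearest measure of error is the scatter between bright probe sets of the same gene, an SD of 0.46 on the log2 scale for this comparison over 4458 genes. Transcript forms add to that scatter, and variation between cultures is not in it. The Lgals9 difference is well above it, although the gene has only 1 probe set, so no second one checks it.

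Cd274 encodes PD-L1. Its signal was 164.8 in co-culture, 56.4 in conditioned medium and 81.2 in regular medium. Only the co-culture value passed the bright limit, and all 3 lay above the floor. The log2 difference was 1.02, a 2.03-fold higher signal in co-culture, at percentile 94.4. Low signals are less certain, and among the 1268 genes whose brighter signal lay between 149.3 and 300, 6.86% were at least 2-fold higher and 6.07% at least 2-fold lower. With the floor raised to the 60th percentile the log2 difference was 0.14, because the regular-medium signal then sits at the floor. With no floor and a pseudocount of 16 the gene no longer met the rule. It has 1 probe set.

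The sequences around the starts of these genes are shown because the members that met the size rule share a short motif there. Of the 10 members, 8 have a promoter in the RefSeq table (GRCm38.p6), as windows of 300 bases that run from 250 bases before to 50 bases after a start. Those of Lgals9 and Cd274, which hold a match, and of Pdcd1lg2, the neighbour of Cd274, which does not, are printed 5′ to 3′ on the strand of the gene. Capitals mark the motif GAAANNGAA, the core of the interferon-stimulated response element, read on either strand.
Lgals9, chr11:78984875-78985174, minus strand: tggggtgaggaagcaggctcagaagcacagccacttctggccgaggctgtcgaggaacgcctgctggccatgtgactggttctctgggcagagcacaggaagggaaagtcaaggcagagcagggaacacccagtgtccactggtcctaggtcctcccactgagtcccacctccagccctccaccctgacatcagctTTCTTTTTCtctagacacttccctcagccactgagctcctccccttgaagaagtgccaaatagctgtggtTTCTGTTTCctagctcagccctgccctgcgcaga
Cd274, chr19:29367188-29367487, plus strand: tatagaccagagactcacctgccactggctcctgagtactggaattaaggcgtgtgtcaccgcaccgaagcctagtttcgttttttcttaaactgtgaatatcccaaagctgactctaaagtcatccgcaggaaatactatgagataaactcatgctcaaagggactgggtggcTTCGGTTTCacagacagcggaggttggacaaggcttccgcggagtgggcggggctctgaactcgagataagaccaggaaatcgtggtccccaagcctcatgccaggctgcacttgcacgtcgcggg
Pdcd1lg2, chr19:29410669-29410968, plus strand: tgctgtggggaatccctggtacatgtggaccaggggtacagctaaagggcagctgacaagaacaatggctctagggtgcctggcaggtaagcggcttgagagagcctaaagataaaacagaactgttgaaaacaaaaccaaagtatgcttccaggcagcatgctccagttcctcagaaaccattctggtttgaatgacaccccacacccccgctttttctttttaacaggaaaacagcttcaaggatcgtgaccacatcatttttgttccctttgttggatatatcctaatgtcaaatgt

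The Lgals9 window held 2 matches, with first bases at -54 and 17 relative to the start, and the Cd274 window held 1, at -76. All 3 were read on the strand opposite to the gene, so on the printed strand their letters are TTCTTTTTC and TTCTGTTTC in Lgals9 and TTCGGTTTC in Cd274. The matches in Lgals9 do not overlap each other. None of the windows of Pdcd1lg2, Cd80, Cd276, Cd47, Cd200 and Icosl held a match. The motif occurred in 8.56% of 32851 windows of the same length, and 0.624% of them held at least 2 matches. A second motif, the gamma-activated site TTCNNNGAA, is its own reverse complement in its fixed letters and was found in 8.3% of windows and in no member. Among bright genes with a window, 71 of 437 that were at least 2-fold higher in co-culture held the response element core, which is 16.2%. It was held by 13 of 208 that were at least 2-fold lower, which is 6.25%, and by 7.98% of all 7717. For the gamma-activated site these shares were 8.92%, 9.13% and 7.97%. The genes were picked on these same arrays. The form of the response element core was chosen after the windows and the array values had been seen. The matches and these shares are therefore a description of letters, not a site or a cause.

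Pdcd1lg2 encodes PD-L2, and the reference places it next to Cd274 with 1 long non-coding gene between them. Its signal was 30.7 in co-culture, 44.8 in conditioned medium and 52.7 in regular medium, so it was at the floor in co-culture and little above it elsewhere. These signals are too dim to rank, and no fold is given.

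CD80 and CD86 are costimulatory ligands found mostly on antigen-presenting cells. The leading Cd80 probe set had signals of 35.6 in co-culture, 34.9 in conditioned medium and 33.3 in regular medium, and its other 3 probe sets ranged from 2.7 to 35.5. Cd86 had 20.6, 30.4 and 5.4 in the same order of conditions on its leading probe set and 6.4 at most on the other. All of these lie at the floor, so no difference between conditions can be given. Of 11 leukocyte and antigen-presenting cell markers, 7 were at the floor in co-culture and none at 0, among them Ptprc (CD45) at 17.6, Itgam at 2.7 and Aif1 at 2.4. The 3 that were bright on any array gave most of the summed signal. Cd14 had 348.4 in co-culture, 234.4 in conditioned medium and 288.6 in regular medium. Cd68 had 273.4, 282.3 and 200.9 in these conditions, and Csf1r had 134.2, 181.4 and 186.9. None of the 3 met the size rule. The summed signal of all 11 markers was 907.5 in co-culture, 798.5 in conditioned medium and 859.4 in regular medium.

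Icosl encodes the ligand of ICOS, a costimulatory receptor of T cells. Its leading probe set had 168 in co-culture, 124.3 in conditioned medium and 125.3 in regular medium. The log2 difference of 0.42 between co-culture and regular medium is below the scatter of 0.46. The other Icosl probe set, with 62.6, 60 and 46.6, gave 0.43.

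Cd276 encodes B7-H3, a B7 family protein that tumours often carry and whose receptor is not settled. Its signal was 1160 in co-culture, 704.1 in conditioned medium and 673.8 in regular medium. The co-culture array was again the high one. The log2 difference was 0.78, above the scatter of 0.46, and placed the gene at percentile 89.7. Cd276 also has only 1 probe set, so no second one checks this value.

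Cd47 encodes the ligand of SIRPα on phagocytes, and it is the member with the best repeated measurement. The leading probe set 1449507_a_at had 5999.7 in co-culture, 3853.8 in conditioned medium and 3585.9 in regular medium. Probe set 1428187_at had 3983.6, 1915.4 and 1995.5 in these conditions, and 1419554_at had 3642.8, 1952.9 and 1865.5. All 3 were highest in co-culture. Their log2 differences from regular medium were 0.74, 1.00 and 0.97, with a mean of 0.90 ± 0.14 (SD over 3 probe sets of 1 pair of arrays). Of the 2 dimmer probe sets, 1430997_at gave 0.61 and the other was at the floor on every array. Cd47 lay just short of 2-fold by the mean and further from it, at 1.67-fold, by the leading probe set.

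CD200 restrains myeloid cells through CD200R. Its 1 probe set had 8 in co-culture, 3.2 in conditioned medium and 24.9 in regular medium, all at the floor. Nothing can be said of its direction.

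Pvr encodes CD155, which NK cells read through CD226. Its leading probe set had 989.5 in co-culture, 1056.4 in conditioned medium and 955.5 in regular medium. The 5 bright probe sets spread widely. Their log2 differences between co-culture and regular medium ran from -0.75 to 0.05, with a mean of -0.29 ± 0.32 (SD). The lowest came from 1450295_s_at, with 462.5 in co-culture, 725.4 in conditioned medium and 777.3 in regular medium, and its name marks a probe set that may also bind other transcripts. Next was 1423905_at, at -0.45. The leading probe set alone, at 0.05, was not lower in co-culture. The dimmer 1429848_at and 1445149_at, which were not bright, gave -0.81 and -0.29. Dividing each array by its median, which raises these differences, put the leading one at 0.19. Whether and how far Pvr was lower therefore depends on the probe set and the scaling.

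**Figure D2:**
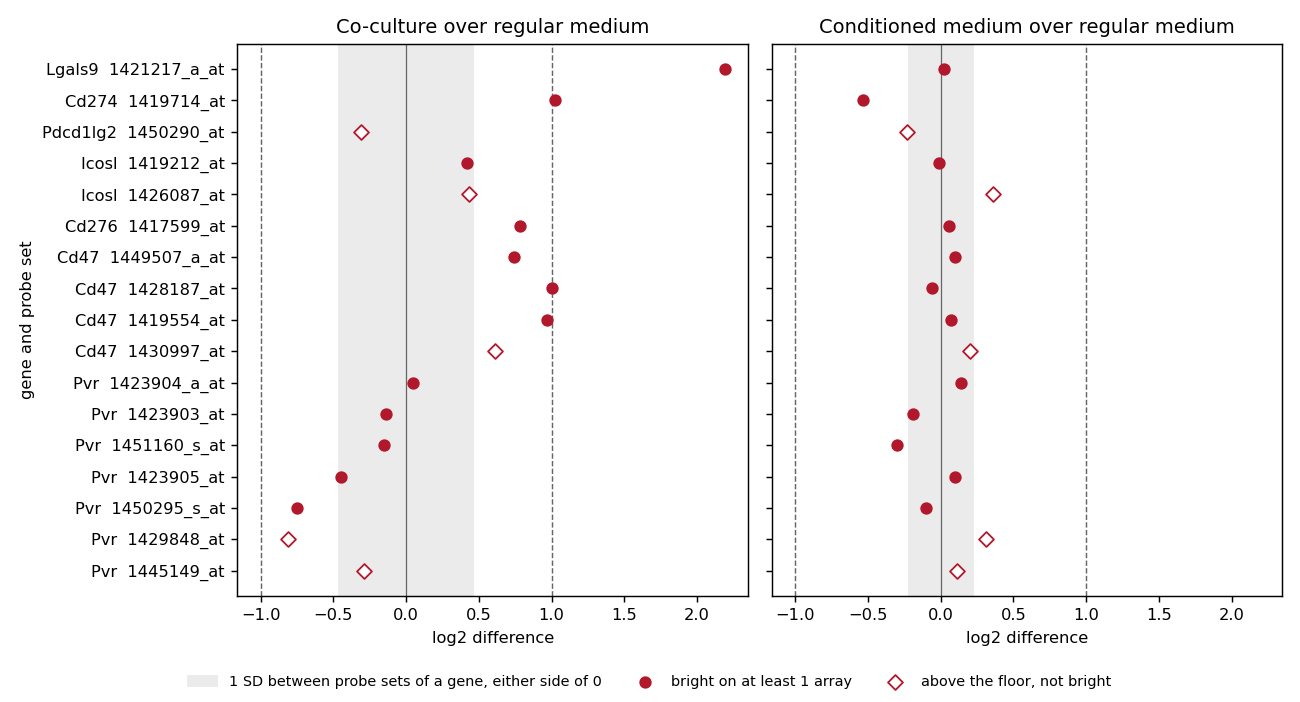
Log2 differences of the 17 member probe sets that were above the floor on at least 1 array, for co-culture over regular medium (left) and conditioned medium over regular medium (right), with dashed lines at 2-fold. The grey band is 1 SD of the scatter between probe sets of a gene, 0.46 on the left and 0.22 on the right. The Cd47 probe sets lie together on the right of the left panel, and those of Pvr spread from -0.81 to 0.05.

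Conditioned medium was set against regular medium to see whether factors from MSCs gave the same differences without contact. They were near 0. Of the 4 bright members 0 met the size rule in either direction, against 0.109% of all 9152 bright genes that were higher and 0.306% that were lower. Log2 differences were 0.02 for Lgals9, 0.06 for Cd276, 0.10 for Cd47 and 0.14 for Pvr, the 4 members that were bright in this comparison. Their median was 0.08, against 0.01 over all bright genes, and all 4 lay within the scatter of 0.22 between probe sets. Icosl was at -0.01. Cd274 had 56.4 in conditioned medium against 81.2 in regular medium, a log2 difference of -0.53 between signals that were not bright. Both comparisons share the regular-medium array.

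Co-culture was also set against conditioned medium, which puts contact beside secreted factors. Lgals9 was 4.5-fold higher in co-culture and Cd274 2.92-fold, Cd276 was 1.65-fold and Cd47 1.56-fold higher, and Icosl was 1.35-fold higher. Pvr was at -0.09. Of the 6 bright members 2 were at least 2-fold higher and 0 at least 2-fold lower, against 5.83% and 2.6% of all 9350 bright genes. For Cd274 the larger fold here comes from its lower signal in conditioned medium. This comparison shares an array with each of the others, so it adds no separate measurement of the members. Contact, isolation and any MSC RNA carried over cannot be told apart here.

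**Figure D3:**
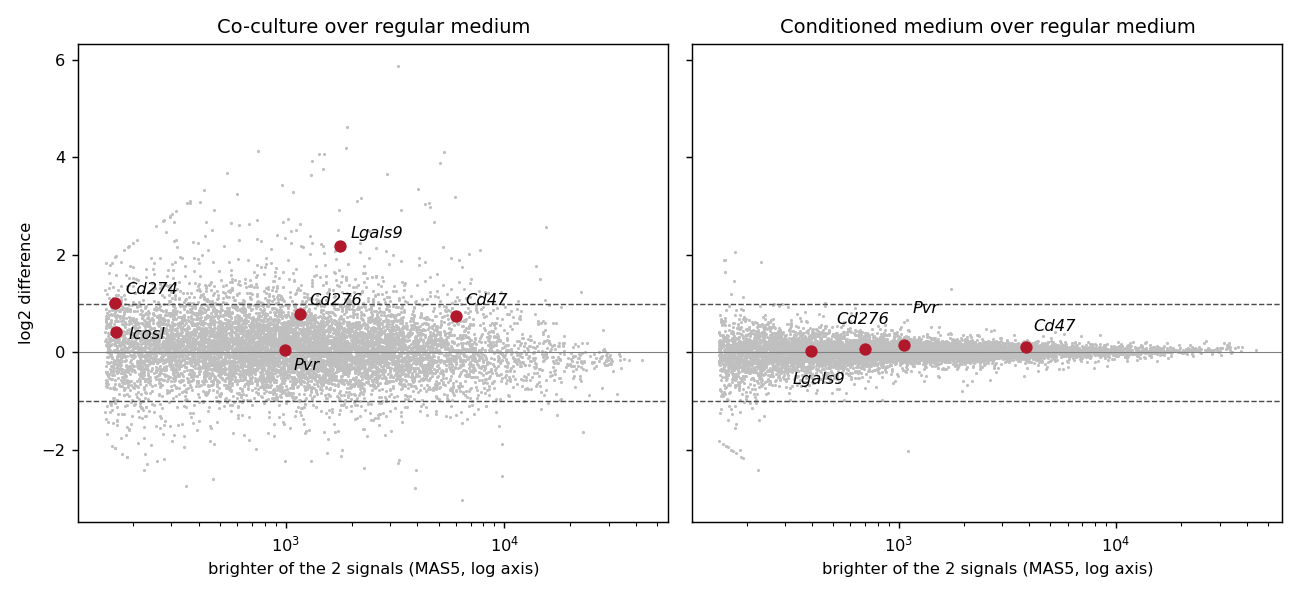
Log2 difference against the brighter of the 2 MAS5 signals (log axis) for all bright genes (grey) and the bright members (red), for co-culture over regular medium (left, 9393 genes) and conditioned medium over regular medium (right, 9152 genes). Dashed lines mark 2-fold. In the left panel Lgals9 stands at 2.19 and Cd274 at 1.02 close to the dim edge, and in the right panel the 4 bright members lie between 0.02 and 0.14.

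Some markers of MSCs and fibroblasts were also higher on the co-culture array, while Col3a1, near the floor, had 45.7 there against 51.6 in regular medium. Of the 12 markers 4 were bright on any array, and their summed signal over all 12 was 2665.6 in co-culture, 1441.4 in conditioned medium and 1167.8 in regular medium. In co-culture over regular medium 2 of the 4 met the size rule, both higher, against 5.81% of all bright genes. The median log2 difference of the 4 was 1.06. Bgn and Col1a2 were bright on the co-culture array alone, so they could enter the count only by being high there. Bgn is among those that met the rule, and the count and the median describe these 4 only. Postn made up most of the sum, at 1802.6 in co-culture and 765.6 in regular medium. Bgn was at least 4.28-fold higher, with 181.5 in co-culture and 12.3 in regular medium. Col1a2 had 188.2 in co-culture against 101.8 in regular medium, and Pdgfra had 187.5 against 101.3. Col1a1, Dcn, Thy1, Pdgfrb and Mgp were at the floor on every array, with Col1a1 at 41.9, Dcn at 35.2 and Thy1 at 6.7 in co-culture, and none was at 0. Their part in the Lgals9, Cd274, Cd276 and Cd47 values was not tested. Fewer cells of a type and less RNA per cell cannot be told apart in these bulk samples.

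The genes whose pattern over the 3 arrays lay nearest to each member that met the size rule were found among 9183 genes above the floor throughout, by the distance between their pairs of log2 differences from regular medium. For Lgals9 these were Aldh1l2, Snhg12 and Gpa33, at distances of 0.0262, 0.0474 and 0.111. Aldh1l2, a mitochondrial folate enzyme, had 522.1 in co-culture, 115.2 in conditioned medium and 115.8 in regular medium. For Cd274 they were Prkab2, Fbxw4 and Armcx2, at 0.0338, 0.0341 and 0.0506, and 9 genes lay within 0.1 of it, against 2 within 0.1 of Lgals9.

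Genes known to regulate Cd274 were nearly all bright. Of 22, 3 met the size rule in co-culture over regular medium, all higher, against 5.81% of all bright genes. The median log2 difference of the 22 was 0.37, against 0.07 over all bright genes and 0.42 for the epithelial markers. Dividing each array by its median gave 5 in place of 3. Irf9, a DNA-binding subunit of the factor that interferon activates, had 1022.4 in co-culture, 136 in conditioned medium and 153.9 in regular medium, a 6.64-fold difference between co-culture and regular medium. Irf1, a transcription factor that binds the Cd274 promoter, had 3992.9, 1535.5 and 1541 in the same conditions, 2.59-fold higher in co-culture. The kinase Jak2 was 2.03-fold higher, at 1231.4 in co-culture against 605.9 in regular medium, though its other bright probe set gave a log2 difference of 0.26. Rela, an NF-kB subunit, was at 0.87. Socs1 and Ifngr2 were lower in co-culture, at -0.56 and -0.45, and Hif1a and Csnk1g2 were at -0.08 and -0.03. None of the 22 met the rule in conditioned medium over regular medium.

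Of 26 NK receptor ligands listed, Pvr included, 18 had a named probe set and 7 were bright. None of the 7 met the size rule in co-culture over regular medium. The Raet1 genes, H60a, H60b and H2-T23 had no probe set under their name alone, so nothing is said of them here. Averaging bright probe sets, or leaving out those whose names mark cross-hybridisation, gave 1 higher gene in place of 0. The class I genes H2-K1 and H2-D1, whose products inhibit NK cells, were at log2 differences of 0.84 and 0.74 on their leading probe sets. The other 7 bright probe sets of H2-D1 gave 0.83 to 1.44, so its side of 2-fold depends on the probe set, and near-identical class I copies may share these probes. Nectin2, a further ligand of CD226, was at 0.35 and Nectin3 at -0.50. The median of the 7 was 0.34.

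Further genes linked to restraint of T cells or phagocytes were listed, and not all are ligands, Nt5e and Pdcd6 for example. Of the 9 that were bright 1 was higher and none lower by the size rule, against 5.81% and 2.76% of all bright genes. That gene was Btn1a1, a milk-fat butyrophilin, 3.25-fold higher with 230.5 in co-culture against 70.9 in regular medium. H2-M3 was at 0.77 and Lgals3, galectin-3, at 0.59. Cd24a, whose product restrains phagocytes through Siglec-10 in humans, had 7598.6 in co-culture, 12274 in conditioned medium and 12688 in regular medium, a log2 difference of -0.74, opposite in direction to Cd47. Its other bright probe sets gave -1.14 and -0.60.

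Lgals9 stood at 2.19 among the galectins, against 0.59 for Lgals3, 0.58 for Lgalsl, 0.49 for Lgals8 and -0.15 for Lgals1, the 4 others that were bright, none of which met the rule. In a list of costimulatory ligands that also holds the receptor gene Cd40, 1 of 3 bright genes met the rule. The share over all bright genes that were lower was 2.76%. The gene was Tnfsf9, the ligand of 4-1BB, 2-fold lower in co-culture with 109.9 against 219.9 in regular medium. Division by the array median, quantile normalization, a floor at the 60th percentile and a pseudocount each put it inside 2-fold. Cd40 was at -0.47, with 169.1 in co-culture, 145.7 in conditioned medium and 233.7 in regular medium.

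A list of further B7 and nectin-like genes, which also holds receptors such as Sirpa, had 4 bright genes. Of these 1 met the rule, against 5.81% of all bright genes that were higher. This was the adhesion molecule Cadm4, 2.19-fold higher with 536.4 in co-culture against 244.6 in regular medium. Among genes linked to complement and phagocytes, which are not all protective, 1 of 6 bright genes met the rule. It was the endocytic receptor Lrp1, 2.3-fold higher with 699.9 against 304.2. Cr1l, the rodent complement regulator Crry, was at 0.72 on its leading probe set and 0.00 on another bright one. Qpctl, the enzyme that modifies CD47 so that SIRPα can bind it, was at -0.73. Of the receptors of the members, 1 of 9 was bright on any array, Sirpa at 128.5 in co-culture and 167.8 in regular medium, and 7 were at the floor in co-culture.

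**Figure D4:**
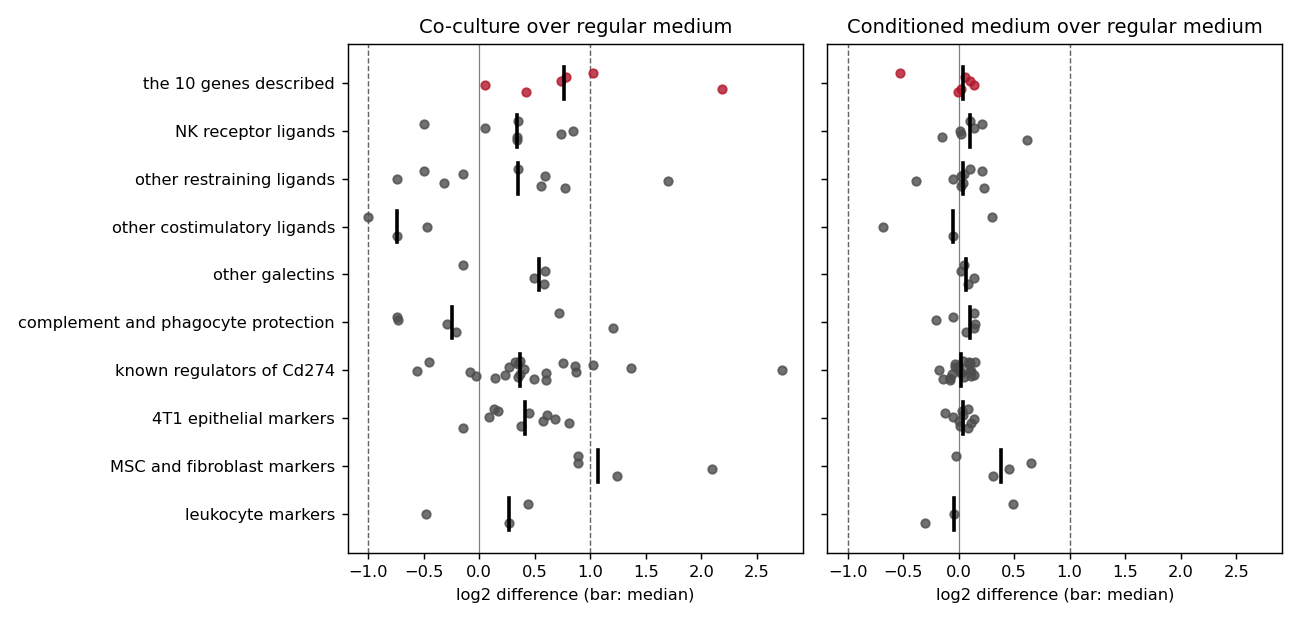
Log2 differences of the genes that were bright on at least 1 of the 3 arrays, for co-culture over regular medium (left) and conditioned medium over regular medium (right), by gene list. Each point is a gene, the black bar is the list's median, and dashed lines mark 2-fold. Lists named for ligands also hold some genes that do not encode ligands. On the left the 6 bright members have a median of 0.76, and on the right 0.04 when Cd274 and Icosl, which are dim there, are counted with the other 4.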

How the data were processed

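Biotin-labelled RNA of 4T1 cells was read on the Mouse Genome 430 2.0 array of Affymetrix, once per condition, per the labels. The deposited values are linear intensity values made by the authors with MAS5, per the submitters' processing notes. The MAS5 version and target were not given in the sources used. The 2%-trimmed means were 498, 497.7 and 497.8 in co-culture, conditioned medium and regular medium, so the values were kept as deposited.

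Of 45037 probe sets, 34945 had 1 symbol, 932 several and 9160 none. Symbols of 34741 were updated through the gene ID. Without replicates no test was possible, and precision is limited by the number of arrays. The members, the 8 related gene lists and the marker lists were chosen with earlier results of these data known. Named genes are all members, up to 4 bright genes of each list with the largest difference between co-culture and regular medium, and the 3 genes nearest to each member that met the size rule. A few further list genes were named for lower values or a loose fit to their list. Predicted genes were passed over, marker genes were chosen as examples after their values were seen, and list genes without a named probe set were not analysed here. Alternatives covered scaling, floor, signal minimum, probe set choice and fold. The size rule was tested on simulated data, with differences placed only in genes well above the bright limit and with noise below the scatter between probe sets. No 2-fold difference was placed, so the simulation does not cover dim genes near the rule such as Cd274. Tools were Python 3.11.15 with NumPy 2.4.6, pandas 2.3.3 and, for the plots, matplotlib 3.10.9.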

Additional observations from a re-analysis of the deposited data

How the results depend on the processing

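Lgals9 met the 2-fold rule, or the 1.5-fold or 3-fold rule set in its place, in co-culture under all 11 alternatives and against both other conditions, with a log2 difference from regular medium of 2.14 to 2.32. Cd274 did so less firmly, with 0.14 to 1.16. The count of members higher than in regular medium was 2, and it was 1 with the floor at the 60th percentile, with no floor and a pseudocount of 16, with the signal minimum at the 80th percentile and with a 3-fold rule, each time Lgals9 alone, and 4 with a 1.5-fold rule. Against conditioned medium it was also 1 with that floor, that minimum and the 3-fold rule, and 4 at 1.5-fold. Without a signal minimum the median over all 10 members was 0.24 against regular medium and 0.22 against conditioned medium, since dim members sit at 0 by construction. No member was lower by 2-fold under any alternative. Cd276 ranged from 0.76 to 0.92, Cd47 from 0.74 to 0.90, Icosl from 0.17 to 0.56 and Pvr from -0.29 to 0.19. Of 139 values of single members, 137 moved by less than the scatter between probe sets, and no member that met the rule changed sign. Dividing each array by its median put the median of all bright genes in co-culture over regular medium at 0.21 in place of 0.07, so that 82.7% in place of 67.8% of genes past 2-fold were higher, with 801 higher and 167 lower in place of 546 and 259. In conditioned medium over regular medium the share was 26.3%, 58.1% after division by the median and 36.6% after quantile normalization. Counts of the related lists stayed within 1.5 times in 471 of 528 cases. A count of 0 that stayed 0 is among these. Most of the list counts were 0, as were all of them in conditioned medium over regular medium, so this figure says little about stability. Lgals9, Cd274 and Cd276 have 1 probe set each, so the choice of probe sets could not move them.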

Other observations

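Some related genes were singled out after their values were seen, and none of them was bright. Clec2d, which encodes a ligand of inhibitory NK receptors of the NKR-P1 family, had 126.9 in co-culture, 43.7 in conditioned medium and 8.5 in regular medium. Vsir, which encodes the checkpoint protein VISTA, had 62.6 in co-culture, 26.2 in conditioned medium and 16.2 in regular medium. Ulbp1, a ligand of the activating NK receptor NKG2D, had 89.7 in co-culture, 122.5 in conditioned medium and 119 in regular medium. Cd46 had 53 in co-culture, 124.8 in conditioned medium and 115.8 in regular medium.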
